A study of Mus musculus with 12 samples.

Results

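Levels of 10 genes of the retinal pigment epithelium (RPE) and the visual cycle were examined in RNA-seq libraries of mouse retina. The genes are Rpe65, Lrat, Rgr, Rdh5, Ttr, Stra6, Tyrp1, Dct, Mlana and Best1, and they were taken by name from a table of 24340 genes, in which all 10 had a row. Both retinas of 6 mice were sequenced, which gave 12 libraries in 4 groups of 3. Every animal, the controls included, carried the p16-3MR transgene, in which regulatory sequence of the senescence gene p16Ink4a drives a reporter together with a viral thymidine kinase, so that ganciclovir (GCV) kills cells that express it. The mice were 12 to 16 weeks old. In 1 eye of each mouse the intraocular pressure (IOP) was kept between 85 and 90 mm Hg over 60 min, and the other eye served as its control. Mice 1, 2 and 5 then received 25 mg/kg GCV by intraperitoneal injection each day, and mice 3, 4 and 6 received PBS. Retinas were taken on day 3. The groups are called ctrl and IOP (mice 3, 4 and 6) and ctrl-GCV and IOP-GCV (mice 1, 2 and 5).

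The RPE is a single layer of pigmented cells that lies against the photoreceptor tips, outside the neural retina. In light, the chromophore 11-cis-retinal of the photoreceptor is turned into all-trans-retinal, which is reduced to retinol and handed to the RPE. There LRAT attaches a fatty acid to the retinol, RPE65 isomerises the ester to 11-cis-retinol, and RDH5 oxidises that to 11-cis-retinal for return to the photoreceptor. The same cells make melanin, as do melanocytes of the choroid and iris and the pigmented epithelia of the iris and ciliary body. The neural retina is dissected away from the RPE, and pieces of RPE can remain attached to it. The sources used here do not say how the layers were separated. In bulk RNA fewer cells of a type and less RNA per cell cannot be told apart.

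The libraries had the make-up of neural retina: Gnat1, which encodes the rod transducin subunit, lay between 9572 and 18196 FPKM (fragments scaled to transcript length and library total) in the 12 libraries. Depth, estimated from the lowest values, was 4000000 fragments in the IOP retina of mouse 6, with 14844 genes above 0, and 6840000 to 9060000 in the other 11 libraries, with 16044 to 16593 genes above 0. Of the 6 control retinas, that of mouse 1 stood apart by its lens genes: 11 crystallins and other lens genes summed to 7330 FPKM there against 6.65 to 133 in the other 5, while the same sum in the IOP eyes was 105 to 6640. The fits were also made without these 2 libraries.

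Promoters of 4 members that the results turn on, 2 of retinoid metabolism and 2 of pigment synthesis, are shown first. RefSeq windows on GRCm38.p6 were at hand for 8 of the 10 genes, not for Ttr and Mlana, and Stra6 had several. Printed are the 250 bases before the annotated start, 5′ to 3′ on the gene's strand. Capitals mark either of 2 motif cores on either strand, which do not overlap: TCATGTG, the M-box core of MITF-type factors, and TAATCC, the core bound by OTX2 and CRX.
Rpe65: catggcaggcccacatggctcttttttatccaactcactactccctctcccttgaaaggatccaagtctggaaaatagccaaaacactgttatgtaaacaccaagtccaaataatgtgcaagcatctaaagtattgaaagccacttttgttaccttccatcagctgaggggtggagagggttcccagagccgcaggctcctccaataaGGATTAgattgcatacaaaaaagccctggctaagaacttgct
Rgr: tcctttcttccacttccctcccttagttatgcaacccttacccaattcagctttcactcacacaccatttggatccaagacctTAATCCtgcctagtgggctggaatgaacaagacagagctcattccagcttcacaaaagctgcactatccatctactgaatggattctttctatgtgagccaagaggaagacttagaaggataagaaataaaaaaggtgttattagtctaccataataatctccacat
Tyrp1: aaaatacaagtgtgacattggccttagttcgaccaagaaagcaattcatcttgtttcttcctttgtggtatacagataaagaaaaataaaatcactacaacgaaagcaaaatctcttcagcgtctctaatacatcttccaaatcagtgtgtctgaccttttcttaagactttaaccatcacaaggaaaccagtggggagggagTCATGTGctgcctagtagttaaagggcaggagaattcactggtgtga
Dct: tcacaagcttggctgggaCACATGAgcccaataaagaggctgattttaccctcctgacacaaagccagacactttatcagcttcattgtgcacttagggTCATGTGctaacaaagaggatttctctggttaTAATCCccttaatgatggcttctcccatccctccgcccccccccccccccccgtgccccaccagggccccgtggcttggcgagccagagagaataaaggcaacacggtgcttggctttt
Rpe65, the retinoid isomerase, starts after chr3:159598931-159599180 on the plus strand. Rgr, an opsin of RPE and Müller glia that handles all-trans-retinal, starts before chr14:37049015-37049264 on the minus strand. Tyrp1, a melanin synthesis enzyme, starts after chr4:80833963-80834212 on the plus strand, and Dct, dopachrome tautomerase, before chr14:118052247-118052496 on the minus strand. TCATGTG occurred in the windows of 2 of the 8 genes, Tyrp1 at position -47 and Dct at -232 (minus strand) and -151, and these are the 2 pigment genes with a window. Of 32851 promoter windows of the same length, 3.77% held it. TAATCC occurred in 5 of the 8 genes, Rpe65 at -42 (minus strand), Rgr at -167, Dct at -119, Best1 at -227 and Tyrp1 at 5 (minus strand, past the printed stretch), against 7.06% of all windows. The windows, which run 50 bases past the start, held neither in Lrat, Rdh5 or Stra6. A match describes letters in a window and shows no binding.

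Rpe65, the first of the 4 retinoid genes, was 5.45, 4.32 and 7.72 FPKM in the ctrl retinas of mice 3, 4 and 6 and 6.83, 2.86 and 1.19 in their IOP retinas. With GCV it was 22.3, 16.7 and 0.955 FPKM in the ctrl-GCV retinas of mice 1, 2 and 5 and 1.46, 1.64 and 4.15 in the IOP-GCV retinas. The highest and the lowest value of Rpe65 both lay in the ctrl-GCV group, 23.4-fold apart, and IOP and control groups overlapped with and without GCV. Rgr, in the same order of mice, was 14.8, 10.8 and 14.9 FPKM in ctrl and 12.7, 4.74 and 3.29 in IOP retinas, and 47.3, 28.3 and 1.87 in ctrl-GCV and 3.59, 7.38 and 6.11 in IOP-GCV retinas. The control retina of mouse 5 was again lowest and that of mouse 1 highest.

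Rdh5, the 11-cis-retinol dehydrogenase, was 6.84, 5.32 and 14.1 FPKM in ctrl, 21.6, 5.01 and 7.69 in IOP, 28.02, 15.4 and 1.07 in ctrl-GCV and 4.16, 5.57 and 7.84 in IOP-GCV retinas. It spanned 26.3-fold, with the same retinas at both ends. Lrat, the retinol acyltransferase, was 1.49, 0.783 and 1.88 FPKM in ctrl, 2.34, 0.419 and 1.25 in IOP, 5.402, 3.41 and 0.169 in ctrl-GCV and 0.260, 0.785 and 0.614 in IOP-GCV retinas. Its IOP and control groups overlapped too, and the range was 32.1-fold. By mean FPKM, a scale per transcript length, the 4 genes stood in the order Rgr (12.99), Rdh5 (10.2), Rpe65 (6.30) and Lrat (1.57), and the ranges of neighbours in that order overlapped.

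The next 2 members bring retinol to the cell. Ttr encodes transthyretin, which carries thyroxine and, with its partner RBP4, retinol, and Stra6 encodes the membrane receptor for RBP4. Ttr was the most abundant member by mean (69.9 FPKM), with 67.4, 45.3 and 103.7 FPKM in ctrl, 110.9, 39.7 and 55.6 in IOP, 181.3, 132 and 10.2 in ctrl-GCV and 20.2, 31.5 and 40.1 in IOP-GCV retinas. Stra6 was 2.92, 1.98 and 6.30 FPKM in ctrl, 4.99, 2.28 and 1.63 in IOP, 4.99, 6.14 and 1.06 in ctrl-GCV and 2.07, 1.90 and 1.40 in IOP-GCV retinas. Both were lowest in the control retina of mouse 5, and Stra6 had the smaller range, 5.92-fold against 17.7-fold for Ttr.

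The 3 pigment genes were highest in other retinas but lowest in the same one, the control retina of mouse 5. Dct was 21.8, 9.42 and 158 FPKM in ctrl, 154, 6.86 and 132 in IOP, 23.1, 8.92 and 5.90 in ctrl-GCV and 52.4, 18.4 and 7.55 in IOP-GCV retinas. Tyrp1 was 10.2, 4.26 and 39.2 FPKM in ctrl, 46.2, 2.47 and 27.6 in IOP, 5.89, 2.56 and 1.24 in ctrl-GCV and 14.5, 4.61 and 2.96 in IOP-GCV retinas. Mlana, which encodes a melanosome protein, was 10.6, 7.81 and 92.7 FPKM in ctrl, 102, 4.27 and 62.6 in IOP, 19.0, 7.98 and 2.97 in ctrl-GCV and 26.8, 23.5 and 3.55 in IOP-GCV retinas. Both eyes of mouse 6 and the IOP eye of mouse 3 were high for all 3 genes, while the control eye of mouse 1, highest for Rpe65, Lrat, Rdh5, Rgr and Ttr, was not among them. Ranges were 26.8-fold for Dct, 34.3-fold for Mlana and 37.3-fold for Tyrp1.

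Best1, which encodes the chloride channel bestrophin-1 of the RPE basal membrane, differed from the other 9. It was 0.537, 0.229 and 0.359 FPKM in ctrl, 0.263, 0.298 and 0 in IOP, 0.207, 0.203 and 0.304 in ctrl-GCV and 0.384, 0.606 and 0.417 in IOP-GCV retinas. These values correspond to an estimated 0 to 7.94 fragments per library, so counting error is large in each of them. Rpe65 rested on an estimated 8.03 to 283 fragments and Dct on 82.0 to 2790.

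**Figure D1:**
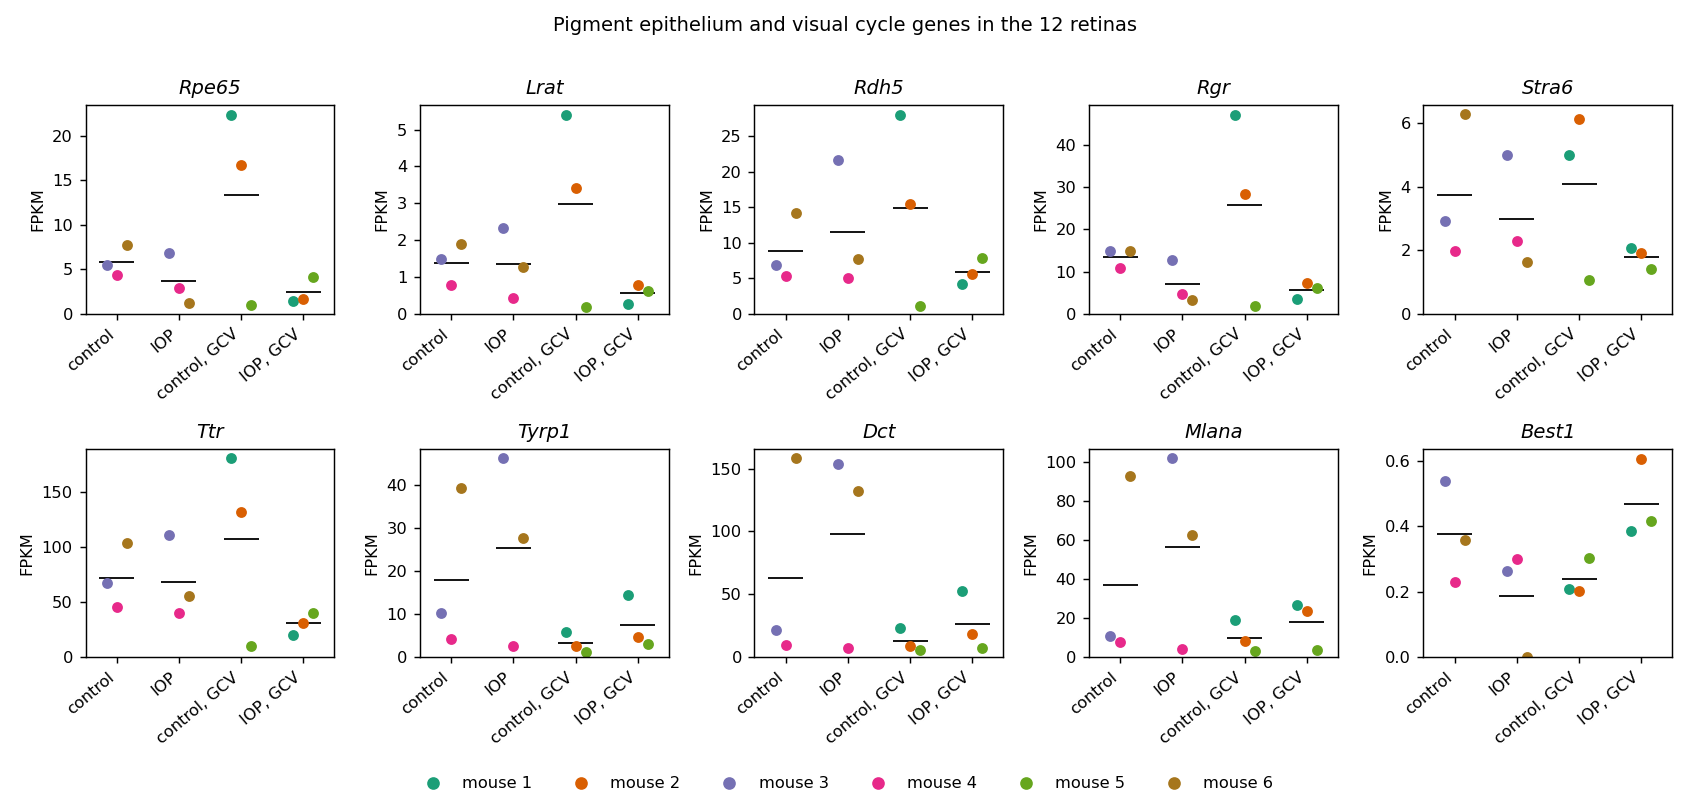
FPKM (y axis, linear, a scale per gene) of each of the 10 genes by group (x axis), with 1 point per retina, coloured by mouse, and a line for the mean of the 3 retinas of a group. Rpe65, Rgr, Rdh5, Lrat and Ttr have both their highest and lowest value in the ctrl-GCV group, Dct spans 5.90 to 158 FPKM, and Best1 stays at or below 0.606.

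Within groups, the SD of log2(FPKM + 1) was 1.14 for Rpe65, 1.20 for Rgr, 1.22 for Ttr, 1.77 for Dct and 1.75 for Mlana. Over the 12910 rows that averaged 1 FPKM or more the median SD was 0.248, and the SDs of these 5 stood at percentiles 98.8, 98.9, 99.0, 99.6 and 99.6. Rdh5, Tyrp1, Lrat and Stra6 stood at 98.9, 99.3, 96.3 and 94.6, and Best1, with an SD of 0.147, at 16.8. Best1 averaged 0.317 FPKM and so is not itself among these rows. The added 1 compresses such low values, so its low percentile does not show that it varied less. Apart from Best1, the members thus varied among retinas of 1 group more than at least 94.6% of these rows did.

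Variation ran in 2 separate patterns. Over the 12 retinas, the 6 retinoid genes (Rpe65, Lrat, Rdh5, Rgr, Stra6 and Ttr) had Pearson r of log2(FPKM + 1) from 0.83 to 0.96 in their 15 pairs, with a median of 0.88. The 3 pigment genes had r from 0.94 to 0.98. Between the 2 sets r was 0.02 to 0.53 in 18 pairs, with a median of 0.38. Best1 had r from -0.30 to -0.02 with the retinoid and -0.25 to -0.19 with the pigment genes. These are descriptions: the 12 points are both eyes of 6 mice, and genes of 1 library share its depth. Without the 2 retinas highest for the set, r was 0.72 to 0.94 among the retinoid and 0.88 to 0.97 among the pigment genes. Taken on the differences between the eyes of a mouse (6 values), r was 0.67 to 0.98 among retinoid, 0.88 to 0.97 among pigment genes and 0.01 to 0.39 between them.

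**Figure D2:**
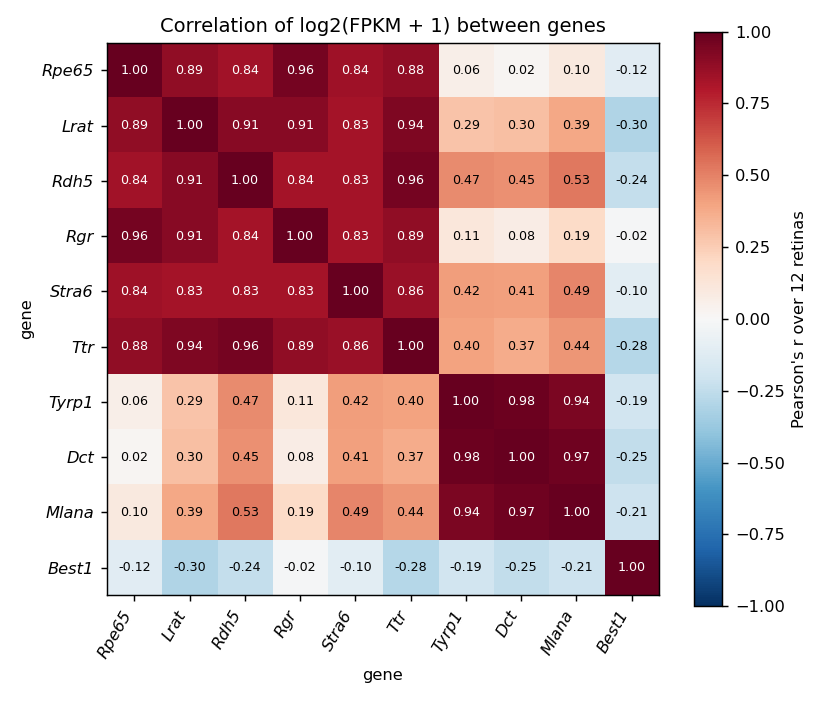
Pearson r of log2(FPKM + 1) between all pairs of the 10 genes over 12 retinas. The 6 retinoid genes form 1 block (0.83 to 0.96), Tyrp1, Dct and Mlana another (0.94 to 0.98), and values between the blocks are 0.02 to 0.53.

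Ratios within a library do not scale with its depth. Dct per Rpe65 ranged from 0.535 to 111, a 208-fold span with a median of 5.09. The highest value came from the shallow IOP retina of mouse 6, without which the highest was 35.8 and the span 66.8-fold. Within the sets the spans were narrower, 3.04-fold for Rgr per Rpe65, 5.90-fold for Ttr per Rpe65, 6.99-fold for Rdh5 per Rpe65, 2.71-fold for Dct per Mlana and 2.23-fold for Dct per Tyrp1. Without that retina, the span was 2.41-fold for Ttr per Rpe65 and 3.65-fold for Rdh5 per Rpe65.

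The order of the retinas differed accordingly. Summed over the 6 retinoid genes, the level was highest in the control eyes of mice 1 (289 FPKM) and 2 (202), followed by the IOP eye of mouse 3 (159) and the control eye of mouse 6 (149). It was lowest in the IOP eye of mouse 1 (31.7) and the control eye of mouse 5 (15.3), 18.9-fold under the highest. Ttr makes up most of this sum. For the 3 pigment genes the sum was highest in the IOP eye of mouse 3 (302 FPKM), the control eye of mouse 6 (290) and the IOP eye of mouse 6 (222). It was 93.6 in the IOP eye of mouse 1 and was lowest in the IOP eye of mouse 4 (13.6) and the control eye of mouse 5 (10.1).

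**Figure D3:**
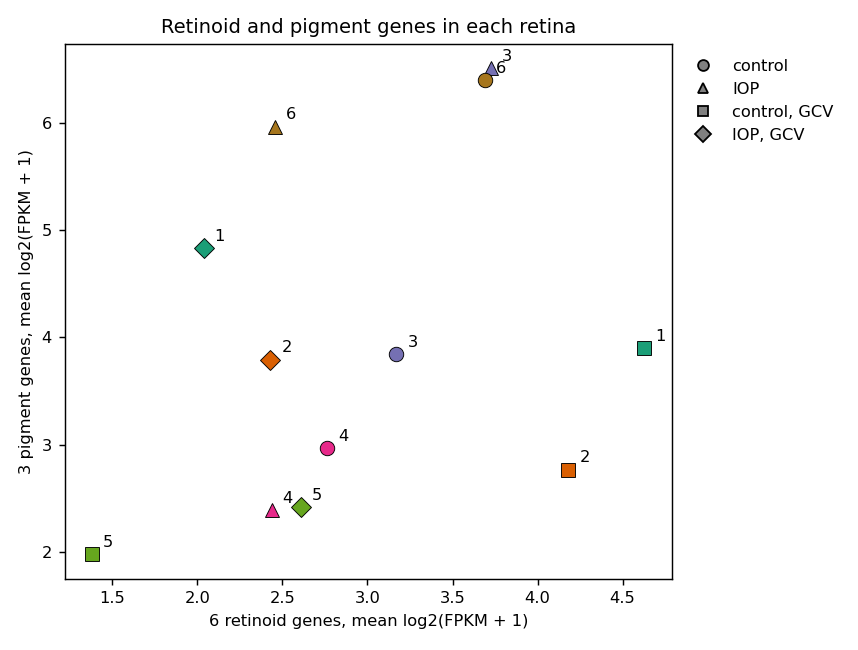
Mean log2(FPKM + 1) of the 6 retinoid genes (x axis) against that of the 3 pigment genes (y axis), with 1 point per retina, numbered by mouse and shaped by group. The control eye of mouse 1 is highest on the x axis (4.63), the IOP eye of mouse 3 on the y axis (6.51), and the control eye of mouse 5 lowest on both (1.38 and 1.98).

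The effect of IOP was first followed within each mouse. All 6 retinoid genes were lower in the IOP eye of mice 1, 2 and 6, and all 6 were higher in that of mouse 5. In mouse 4, 5 of 6 were lower, and in mouse 3, 5 of 6 were higher. Rpe65 was 15.3-fold lower in the IOP than in the control eye of mouse 1, 10.1-fold lower in mouse 2, 6.51-fold lower in mouse 6 and 4.34-fold higher in mouse 5. The direction thus was not shared by the 3 GCV-treated mice, nor by the 3 others. All 3 pigment genes were higher in the IOP eye of mice 1, 2, 3 and 5 and lower in that of mice 4 and 6. In mice 1 and 2 the sets moved in opposite directions, with a median log2 difference between the eyes of -2.80 for the retinoid and 1.15 for the pigment genes in mouse 1, and of -1.57 and 0.97 in mouse 2. Rgr was lower in the IOP eye of 5 of 6 mice, and no member moved one way in all 6. Of all genes tested, 10.7% were higher and 10.1% lower in the IOP eye of all 6 mice.

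**Figure D4:**
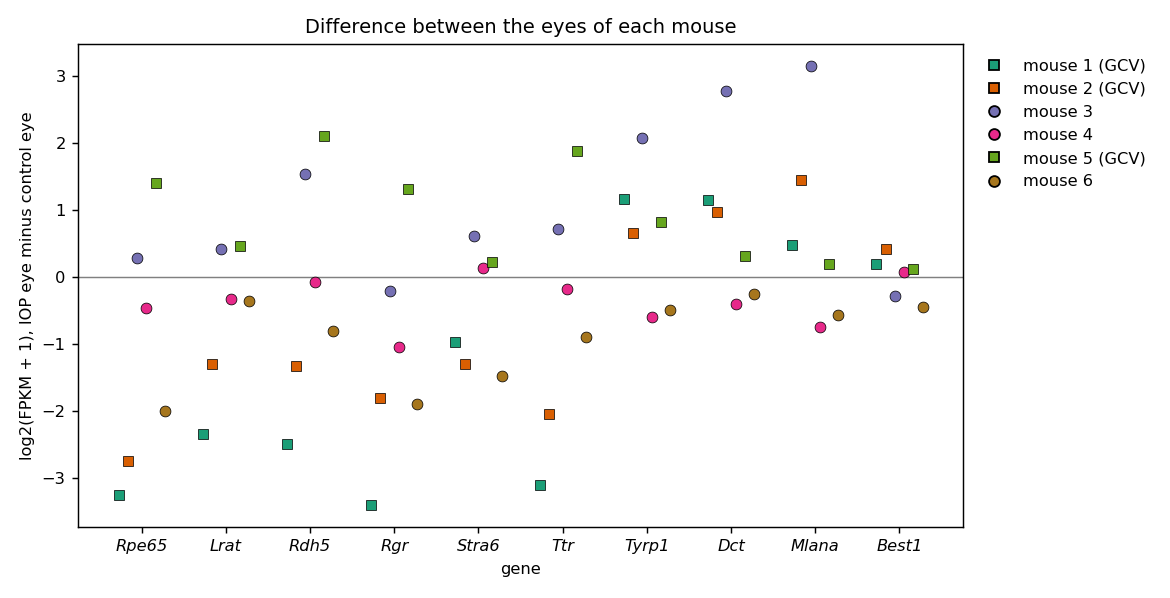
Difference in log2(FPKM + 1) between the IOP and the control eye (y axis) for each of the 10 genes (x axis), with 1 point per mouse and squares for the GCV-treated mice. Rpe65 runs from -3.24 (mouse 1) to 1.40 (mouse 5), lower in 4 mice and higher in 2, and Dct from -0.41 (mouse 4) to 2.76 (mouse 3), higher in 4 and lower in 2.

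Tests used limma on log2(FPKM + 1) with Benjamini-Hochberg adjustment over 18509 genes, with 0.05 as the threshold on the adjusted p. Comparing the 6 IOP with the 6 control retinas, 0 of the 10 members were called, where 12.2% of all genes tested were, and 0 had an unadjusted p under 0.05, against 30.3% of them. The estimate for Rpe65 was -1.13 (log2 fold change, SE 0.58, 95% interval -2.42 to 0.17, adjusted p = 0.227) and that for Rgr -1.17 (SE 0.61, -2.53 to 0.19, adjusted p = 0.231). Both intervals included 0. For Ttr it was -0.61 (SE 0.62, adjusted p = 0.555), for Lrat -0.57, for Stra6 -0.46 and for Rdh5 -0.18. Leaving out 1 retina moved Ttr from -1.24 to -0.23, Lrat from -0.94 to -0.32 and Rdh5 from -0.74 to 0.21, in each case with the lowest value without the control retina of mouse 5 and the highest without that of mouse 1, and Stra6 from -0.74 (without the control retina of mouse 5) to -0.28 (without that of mouse 6). Without both libraries that stood apart the estimates were -0.19 for Ttr, -0.33 for Lrat, -0.23 for Stra6 and 0.28 for Rdh5. The pigment genes had positive estimates, 0.75 for Dct (SE 0.90, -1.25 to 2.76, adjusted p = 0.612), 0.66 for Mlana and 0.61 for Tyrp1. That of Dct ran from 0.33 (without the control retina of mouse 4) to 1.45 (without the IOP retina of mouse 4), that of Mlana from 0.25 to 1.32 and that of Tyrp1 from 0.23 to 1.17, both lowest without the IOP retina of mouse 3 and highest without that of mouse 4. Best1 had 0.01 (SE 0.08). The median over the members was -0.32, beside 0.01 over all genes, and ran from -0.74 (without the control retina of mouse 5) to -0.11 (without that of mouse 1) when 1 retina was left out. Without both libraries that stood apart it was -0.06.

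The control retina of mouse 5, lowest for both sets, decided whether Rpe65 and Rgr were called. Without it, Rpe65 had a log2 fold change of -1.69 (limma adjusted p = 0.0279) and Rgr one of -1.79 (adjusted p = 0.0142). Leaving out any of the other 11 retinas alone, or the IOP retina of mouse 6 together with the control retina of mouse 1, left all 10 members uncalled. Without that last pair the estimates were -0.57 for Rpe65 (adjusted p = 0.550) and -0.60 for Rgr (adjusted p = 0.543). In the control retina of mouse 5 the stroma and lens sums described below were 6.73 and 133 FPKM, the stroma sum under that of the 5 other control retinas (7.26 to 48.2) and the lens sum above that of 4 of them (6.65 to 77.1, apart from the 7330 of mouse 1). Its sums for ciliary body, iris and cornea (11.9 against 19.9 to 81.6), blood (56.2 against 81.3 to 193), other RPE genes (76.9 against 84.5 to 103) and further melanin genes (14.5 against 17.1 to 68.3) were also the lowest of the 6 control retinas. Their part in the low member values was not tested.

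Without GCV, IOP against ctrl retinas gave 0 members called by limma (1.65% of all genes), and 0 passed an unadjusted p under 0.05 (18.9%). Estimates were -1.05 for Rgr (SE 0.87), -0.73 for Rpe65 (SE 0.83), 0.22 for Rdh5 (SE 0.86) and 0.70 for Dct (SE 1.28). Without both libraries that stood apart they were -0.70, -0.28, 0.36 and 0.06, and that of Tyrp1 turned from 0.33 to -0.06. Single retinas turned the sign of Dct, from -0.14 (without the control retina of mouse 4) to 2.10 (without the IOP retina of mouse 4), and of Rdh5, from -0.33 (without the IOP retina of mouse 3) to 0.63 (without that of mouse 4). With GCV, 0 members were called (1.8% of all genes), and 0 passed an unadjusted p under 0.05 (19.2%). Here the estimates were -1.53 for Rpe65 (SE 0.83, adjusted p = 0.347), -1.30 for Rgr (SE 0.87), -1.06 for Lrat (SE 0.55, adjusted p = 0.321), -1.09 for Ttr (SE 0.88) and 0.81 for Dct (SE 1.28). The 6 retinoid intervals with GCV all held 0, and single control retinas set the size of the estimates. Without the control retina of mouse 1 they were -0.87 for Rpe65, -0.50 for Rgr, -0.56 for Lrat, -0.34 for Ttr, -0.47 for Stra6 and 0.20 for Rdh5, which then turned positive. Without the control retina of mouse 5 they were -2.65, -2.54, -1.79, -2.36, -1.24 and -1.71. Dct ran from 0.13 (without the IOP retina of mouse 1) to 1.45 (without that of mouse 5). The median over the 10 members was -0.10 without and -0.63 with GCV, beside 0.00 over all genes in both. Leaving out 1 retina moved it from -0.40 (without the IOP retina of mouse 3) to 0.22 (without that of mouse 4) in the former, and from -1.47 (without the control retina of mouse 5) to -0.07 (without that of mouse 1) in the latter.

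The difference between both IOP effects was tested as an interaction. It gave 0 members called by limma, where 0% of all genes were, and 1 with an unadjusted p under 0.05 (1.93%). That member was Best1 (0.46, SE 0.16, unadjusted p = 0.0183, adjusted p = 0.997), while Rpe65 had -0.80 (SE 1.17) and Dct 0.11 (SE 1.81). When 1 retina was left out, Rpe65 ran from -1.93 (without the control retina of mouse 5) to -0.14 (without that of mouse 1), and Dct from -1.29 (without the IOP retina of mouse 4) to 0.95 (without the control retina of mouse 4). Without both libraries that stood apart Dct had 1.27. GCV against no GCV in IOP retinas likewise gave 0 members called (0% of all genes) and 1 with an unadjusted p under 0.05 (4.18%), Best1 at 0.31 (SE 0.12, unadjusted p = 0.0217, adjusted p = 0.819). Without the shallow IOP retina of mouse 6, where Best1 was at 0, its estimate was 0.20. The 9 other estimates in that comparison lay between -0.10 for Rgr and -1.40 for Dct. That of Dct ran from -2.79 (without the IOP retina of mouse 4) to -0.64 (without that of mouse 3) and was -0.75 without both libraries that stood apart. That of Rgr ran from -0.45 to 0.39 and that of Rpe65, -0.33, from -0.77 to 0.15 when 1 retina was left out, with the lowest values without the IOP retina of mouse 6 and the highest without that of mouse 3. In control retinas, GCV against no GCV gave 0 members called (0% of all genes) and 0 with an unadjusted p under 0.05 (1.59%), with estimates from -1.81 for Tyrp1 (SE 1.02) to 0.48 for Rpe65 (SE 0.83). That of Tyrp1 ran from -2.48 (without the control retina of mouse 4) to -1.01 (without that of mouse 6). The sign for Rpe65 rested on the control retina of mouse 1, without which it was -0.19, and it was 1.60 without that of mouse 5.

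Best1 was also the 1 member whose groups were free of overlap. This held for IOP-GCV against ctrl-GCV, where 29.8% of all genes were free of overlap, and for IOP-GCV against IOP retinas, where 4.75% were. No member was free of overlap between IOP and ctrl retinas (20.5% of all genes), between ctrl-GCV and ctrl retinas (11.2%) or between the 6 IOP and 6 control retinas (7.9%). With at most 7.94 estimated fragments behind any value of Best1, the part of counting error in its differences was not tested.

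**Figure D5:**
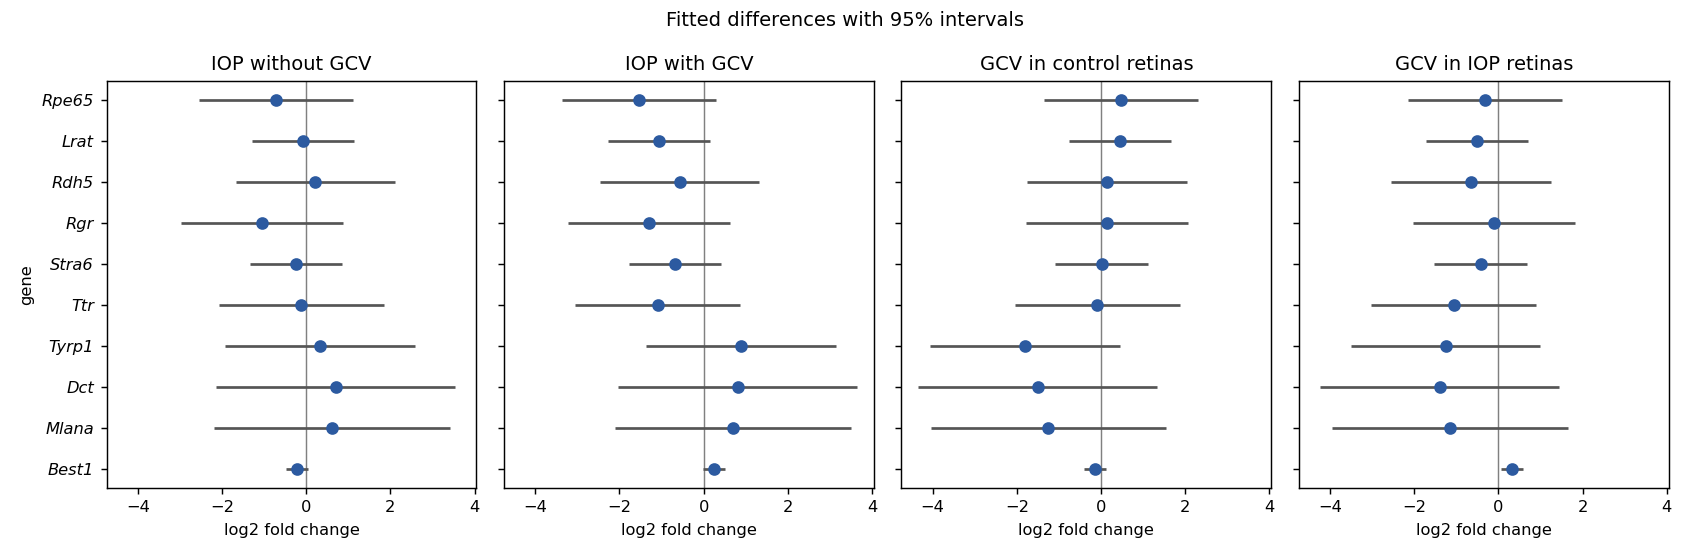
Log2 fold changes (x axis) of the 10 members for IOP without and with GCV and for GCV in control and IOP retinas, with points for the limma estimate and lines for its 95% interval. Intervals of the 6 retinoid and 3 pigment genes all cross 0, and that of Best1 lies above 0 for GCV in IOP retinas (0.06 to 0.57).

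Other genes of the visual cycle act mainly in photoreceptors and Müller glia. Rlbp1 encodes CRALBP, the 11-cis-retinal carrier of RPE and Müller glia. It was 166, 181, 141, 215, 173 and 174 FPKM in the control eyes of mice 3, 4, 6, 1, 2 and 5. In the IOP eyes, in the same order, it was 112, 107, 126, 120, 144 and 67.9. Control and IOP values overlapped by 1 retina on either side, and Rlbp1 fell in the pooled comparison, lower in 6 of 6 mice (log2 fold change -0.65, SE 0.17, limma adjusted p = 0.0345), where 5.44% of all genes fell and 6.76% rose. With the mouse as a block the adjusted p was 0.0547. Leaving out single retinas kept the call in 5 of 12 fits and lost it in 7, those without any 1 of the 6 control retinas or the IOP retina of mouse 3. The adjusted p in those 12 fits ran from 0.0138 to 0.0869, and was 0.0860 without the IOP retina of mouse 6 and the control retina of mouse 1. Rbp3, which carries retinoids between the cells (1246 to 1804 FPKM), and the retinol dehydrogenase gene Rdh12 (347 to 594 FPKM) were not called. Rlbp1 had r = 0.32 with the retinoid and -0.07 with the pigment set over the 12 retinas.

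Further genes known from the RPE followed the members to different degrees. Of 10 listed, 9 had a row and 1 was called in the pooled comparison, where 12.2% of all genes tested were. It was Enpp2, which encodes the secreted enzyme autotaxin. Enpp2 was 12.7 to 22.9 FPKM in the control and 3.41 to 11.2 in the IOP eyes, without overlap, as were 7.9% of all genes. It was lower in 6 of 6 mice (-1.12, SE 0.27, limma adjusted p = 0.0292), as were 10.1% of all genes. Leaving out single retinas kept that call in 5 of 12 fits, with adjusted p from 0.0108 to 0.0775. It was lost without any 1 of the 6 control retinas or the IOP retina of mouse 5, and without the IOP retina of mouse 6 and the control retina of mouse 1 together (adjusted p = 0.0613). The 7 of these genes that averaged 1 FPKM or more had a median r of 0.40 with the retinoid and 0.52 with the pigment set. Over the retinas Enpp2 had r = 0.40 with the retinoid and -0.30 with the pigment set. Slc16a8, the lactate transporter of the RPE, had the highest r of these with the retinoid set, 0.94, and 0.14 with the pigment set, and ranged from 0.153 to 5.05 FPKM. Krt18, a keratin (47.4 to 107.5 FPKM), and Serpinf1, which encodes PEDF (2.89 to 9.85 FPKM), had r of -0.09 and 0.28 with the retinoid and 0.52 and 0.62 with the pigment set.

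Of 9 further genes of melanin synthesis, 0 were called by limma in the pooled IOP comparison and 0 had an unadjusted p under 0.05. With the mouse as a block 0 were called and 1 had an unadjusted p under 0.05, Rab38, a melanosome transport gene, which was higher in the IOP eye of 6 of 6 mice by 0.31 to 0.80 on the log2 scale (estimate 0.49, limma adjusted p = 0.0521 with the block and 0.353 without it). Of all genes tested, 10.7% were higher in the IOP eye of all 6 mice. The naming rule covers Rab38, but its result with the block is pointed out after its values were seen. Pmel, which forms the fibrils of the melanosome, was 36.1 FPKM in the control and 13.3 in the IOP eye of mouse 6 and 33.6 in the IOP eye of mouse 3, against 1.39 to 9.31 elsewhere. These are the 3 retinas that were high for Dct, Tyrp1 and Mlana. Among the 6 melanin genes that averaged 1 FPKM or more, the median r was 0.86 with the pigment and 0.23 with the retinoid set. Rab38 and the ion exchanger gene Slc24a5 had 0.85 and 0.86 with the pigment set.

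Markers of tissues next to the retina were measured beside the members. The 7 genes listed for choroid and scleral stroma summed to 6.73 to 101 FPKM, and the 4 of them that averaged 1 FPKM or more had a median r of 0.73 with the pigment and 0.25 with the retinoid set. The highest sum, 101, was in the IOP eye of mouse 3, where Dcn, the matrix proteoglycan decorin, was 63.9 FPKM, and the second, 48.2, in the control eye of mouse 6. The 7 genes of ciliary body, iris and cornea summed to 11.7 to 107 FPKM, and the 5 of them that averaged 1 FPKM or more had a median r of 0.41 with the pigment and 0.23 with the retinoid set. Among them Optc, the opticin gene of the ciliary epithelium, was 48.9 to 54.7 FPKM in both eyes of mouse 6 and the control eye of mouse 3, had r = 0.76 with the pigment and 0.23 with the retinoid set, and the cornea gene Kera was at 0 in 11 of 12 libraries. By group, the stroma sum was 9.20 to 48.2 FPKM in ctrl, 8.07 to 101 in IOP, 6.73 to 15.2 in ctrl-GCV and 9.40 to 22.7 in IOP-GCV retinas. In the pooled IOP comparison limma called 0 genes of either list, with 1 stroma gene, Col3a1, and 0 of the others at an unadjusted p under 0.05. Their part in the pigment levels was not tested.

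Genes of lens, leukocytes, blood, rods and Müller glia were set beside the members as well. In the pooled comparison, where limma called 12.2% of all genes, 5 of 11 lens genes were called, all higher. An unadjusted p under 0.05 was reached by 10 of the 11, against 30.3% of all genes. The lens genes had a median r of -0.24 with the retinoid and -0.07 with the pigment set. All 8 microglia and leukocyte genes rose, with sums of 49.5 to 110 FPKM in control and 326 to 2692 in IOP eyes, and had a median r of -0.35 and 0.23. Rod genes summed to 17799 to 29316 and Müller glia genes to 1593 to 2713 FPKM, 1.65-fold and 1.70-fold ranges beside the 18.9-fold and 29.9-fold of the members' sums. Wide ranges were not particular to the members: sums spanned 15.0-fold for stroma, 20.4-fold for blood, 54.4-fold for microglia and leukocyte and 1102-fold for lens genes. The Müller glia sum hides opposite moves of Glul (6.07-fold range, lower in the IOP eye of 6 of 6 mice) and Apoe (3.43-fold, higher in 6 of 6). Limma called 0 rod and 2 of 6 Müller glia genes, Apoe (higher) and Glul (lower). With the mouse as a block it called 1 Müller glia, 7 microglia and leukocyte and 7 lens genes. Blood genes summed to 25.6 to 524 FPKM, with 0 of 6 called, and had a median r of 0.41 and 0.02. At an unadjusted p under 0.05 stood 1 rod and 0 blood genes. The part of these other cells in the members' values was not tested.

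Likeness to the members was ranked over the 12898 other genes that averaged 1 FPKM or more and whose name no other row shared, by Pearson r over the 12 retinas with the mean of the standardised log2 values of all 10 members. The 10 most alike were Clic6, Ptgds, Col8a2, Kcnj13, Sorbs3, Cpxm2, Tmem27, Sult1c1, Calml4 and Pon1, with r from 0.93 to 0.85. Clic6, a chloride channel family gene, was 1.55 to 4.93 FPKM, and Ptgds, the prostaglandin D synthase gene, 37.6 to 575 FPKM. Kcnj13 encodes the potassium channel Kir7.1 of the RPE and had r = 0.77 with the retinoid and 0.70 with the pigment set.

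The ranking was repeated for each set after the split had been seen. Slc16a8 (r = 0.94) led for the retinoid set, followed by Car12, Col8a2, Pon1, Sult1c1, Ermn, Clic6, Col8a1, Cpxm2 and Sorbs3 (0.82). For the pigment set Gsta3 (0.95), C1qtnf5 (0.95) and Pmel (0.95) led, followed by Mdk, Tspan10, Tyr, Slc4a5, Ackr3, Gja1 and Rnf123 (0.87). None of the 10 was shared between the 2 rankings, and Tyr, which encodes tyrosinase, ranged from 0.185 to 8.06 FPKM.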

How the data were processed

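RNA of 12 retinas was sequenced by the authors from stranded mRNA libraries. The deposited table holds FPKM values per gene and library. No source gives the unit, which was taken from the values. The submitters' processing notes name TopHat2, Bowtie2, Cufflinks, Cuffdiff and mm10, while the methods of the study describe exon counts of RefSeq genes with HOMER, and which of these made the table is not given in the sources used here. No column of the table was left unused. FPKM keeps no counts, so depth was estimated from 3629 single-transcript genes of at least 1500 bases, taking 170 bases off their length, with 76.0% to 85.6% of low values within 0.15 of a whole number of fragments.

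Values were analysed as log2(FPKM + 1), which understates changes of low genes, with limma 3.58.1 in R 4.3.3 (4 group means, variance trend) over the 18509 genes above 0 in at least 1 library, and the fit was tested on simulated data. Benjamini-Hochberg adjustment was used at 0.05. A test on counts had been planned for the case that the table held counts, which it does not. Both eyes come from 1 animal, so the mouse number pairs the libraries, and the deviations of its eyes correlated at -0.12 to 0.39 over 12910 rows. The fit with mouse as a block is an alternative. Others were a pseudocount of 0.1, a minimum of 1 FPKM in 3 libraries, median-ratio scaling, no variance trend, only the groups compared and leaving out each retina. Array weights, the removal of both retinas named above and the likeness to each set were added after seeing the data. The members, the gene lists and the tests were chosen with earlier results of these data known. The rule for naming covered all members, the 3 most abundant genes and the 2 with the smallest p of each further list, and the 10 genes most like the members. Of the further lists, not every gene that the rule covered is named in the text. Slc16a8, Kera and the further genes of the repeated rankings were named after their values were seen. Replicates are different animals within a group. Some genes of the visual cycle list are not reported here.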

Additional observations from a re-analysis of the deposited data

How the results depend on the processing

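In all 6 comparisons the number of members called stayed at 0 under a pseudocount of 0.1, the 1 FPKM filter, median-ratio scaling, no variance trend, array weights and, for the 2-group fits, only the groups compared. With the mouse as a replicate block it was also 0 in each, and the block changed no call of a member, while Rlbp1 lost its call. Leaving out single retinas gave 0 to 2 members called for IOP over all 6 mice, the 2 being Rpe65 and Rgr without the control retina of mouse 5, and 0 elsewhere. At an unadjusted p under 0.05 the count was 1 in the interaction and 1 for GCV in IOP retinas (Best1 in both). The median log2 fold change of the members moved by less than its spread in every alternative. That spread was the SD over mice of the median difference between the eyes, or, for GCV against no GCV, the SD over retinas of a group. It was 0.70 to 1.29, so wide that a smaller move says little. Leaving out 1 retina turned the sign of the median for IOP without GCV (-0.40 to 0.22), for the interaction (-1.24 to 0.21) and for GCV in control retinas (-0.64 to 0.87). Counts over all genes were less stable: the block gave 75 against 306 for IOP without GCV, 144 against 334 with GCV and 1351 against 2258 over all 6 mice, and leaving out single retinas gave 23 to 2490, 77 to 1046 and 830 to 4515. A pseudocount of 0.1 gave 464 without and 535 with GCV, array weights 180 and 1721, and only the groups compared 92 with GCV. Removal of the IOP retina of mouse 6 and the control retina of mouse 1 gave 73, 96 and 991. The values of Best1 rest on few fragments, an estimated median of 4.46 per library.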
